A study of Arabidopsis thaliana with 8 samples.

Results

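Embryos of Arabidopsis thaliana from crosses to bdl pollen were compared with embryos from crosses to Col-0 pollen, 6 days after pollination, on 2-colour oligonucleotide arrays (n = 4). The seed parent of both crosses was Q0990, a GAL4 enhancer trap stock, and both crosses are of ecotype Col-0 per the labels, from plants kept in a 16 h light and 8 h dark cycle. Each array carried amplified RNA of isolated Q0990 x bdl embryos in one colour and of isolated Q0990 x Col-0 embryos in the other. The 4 arrays were taken by their labelled day from the 8 arrays of the series, the other 4 being day 3 arrays, and the series text names them biological replicates. Q0990 x bdl RNA carried Cy5 on arrays 1 and 2 and Cy3 on arrays 3 and 4. The labels do not say whether the bdl stock holds a transgene driven by the trap line or the mutant allele, in which cells Q0990 drives expression, or how many embryos were pooled. Of 24648 genes on the arrays, 19467 were tested on day 6. A filter on dim reporters had left 19720, of which 8173 have a symbol in the TAIR10.1 gene table; genes without one are given by their gene code.

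Auxin acts on transcription through pairs of proteins. Auxin response factors (ARFs) bind target genes, Aux/IAA proteins hold them inactive, and auxin triggers the breakdown of the Aux/IAA partner. BODENLOS (BDL, IAA12) is the Aux/IAA partner of MONOPTEROS (MP, ARF5), and the bdl form is known to resist breakdown. In the Arabidopsis embryo this pair is known for the specification of the hypophysis, from which part of the root meristem comes, for the first vascular cells and for the placement of the cotyledons. A few days after pollination the embryo passes from patterning to growth of cotyledons, greening and the filling of cells with oil and storage protein.

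Median intensities per channel were 225 to 446 for Q0990 x bdl and 231 to 451 for Q0990 x Col-0 on the day 6 arrays, and log2 ratios (bdl cross to Col-0 cross) correlated across genes between arrays at r = 0.73 to 0.87. Arrays 1 and 3 (r = 0.80) and arrays 2 and 4 (r = 0.87) were closer to each other than the remaining pairs (0.73 to 0.76), a grouping that crosses the labelled dyes. The series text names 4 biological replicates, but whether each pair shares RNA was not tested; if it does, n is 2 in place of 4 throughout. In what follows, 4 ratios in a row are log2 ratios of arrays 1 to 4, a value with ± is their mean and SD (n = 4), and "called" means an adjusted p under 0.05 in limma's fit over all genes. A channel is "above the blanks" where it exceeded the 95th percentile of blank spots. On arrays 1 to 4 this cut was 80.5, 80.9, 76.2 and 256 for Q0990 x bdl and 68.4, 213, 131 and 308 for Q0990 x Col-0. It thus differed between channels, and on array 4 both cuts lay near the channel medians (314 and 320). The Q0990 x Col-0 cut of array 2 also lay near its median (231). A channel not above the blanks may therefore still hold the transcript. In such bulk RNA, fewer cells of a type and less RNA per cell cannot be told apart.

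BDL transcript was higher in Q0990 x bdl and MP transcript slightly lower. BDL (IAA12) ratios were 1.14, 0.92, 1.05 and 0.98, high on every array (2.03-fold, 1.02 ± 0.09, adjusted p = 1.42e-05). MP was lower, with ratios of -0.11, -0.44, -0.37 and -0.33 (-0.31 ± 0.14 SD, adjusted p = 0.0239), all negative and smallest on array 1. Without array 2, 3 or 4 MP was not called (adjusted p = 0.106, 0.0966 and 0.084). The 3 BDL reporters gave 0.57 to 1.44. Whether the BDL reporter reads the bdl transcript, the resident one or both was not tested.

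Over all genes, 6939 of 19467 were called (35.6%), 3163 of them higher (16.2%) and 3776 lower (19.4%) in Q0990 x bdl. Most of these changes were small. Only 1027 reached 1.5-fold, 196 higher and 831 lower, and 260 reached 2-fold (1.34%), 27 higher (0.139%) and 233 lower (1.2%). Of the 233 falls, 230 were negative on 4 of 4 arrays, and all 27 rises were positive on 4 of 4. Above 3-fold there were 37 falls and 5 rises, and above 4-fold 12 falls and 2 rises. Large changes on day 6 were thus mostly falls, while small ones went both ways. The number of 2-fold calls moved with the processing, with 56 rises and 333 falls where no offset was added. Reporters above the blanks in all signals gave 13 and 167 among 10175 genes tested. A deposited table of log2 ratios gave 87 and 396 among 26098 entries, which were not averaged per gene. Both counts thus come from other sets than the 19467 genes. In 14 of the 233 falls the Q0990 x bdl channel was above the blanks on no array, so that their size is only a lower bound. Counts of calls depended on the number of arrays: leaving out 1 day 6 array gave 4507 to 5200 calls, and averaging arrays 1 and 3 and arrays 2 and 4 as 2 replicates, a choice made after the correlations were seen, gave 3170, 1158 higher and 2012 lower.

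**Figure D1:**
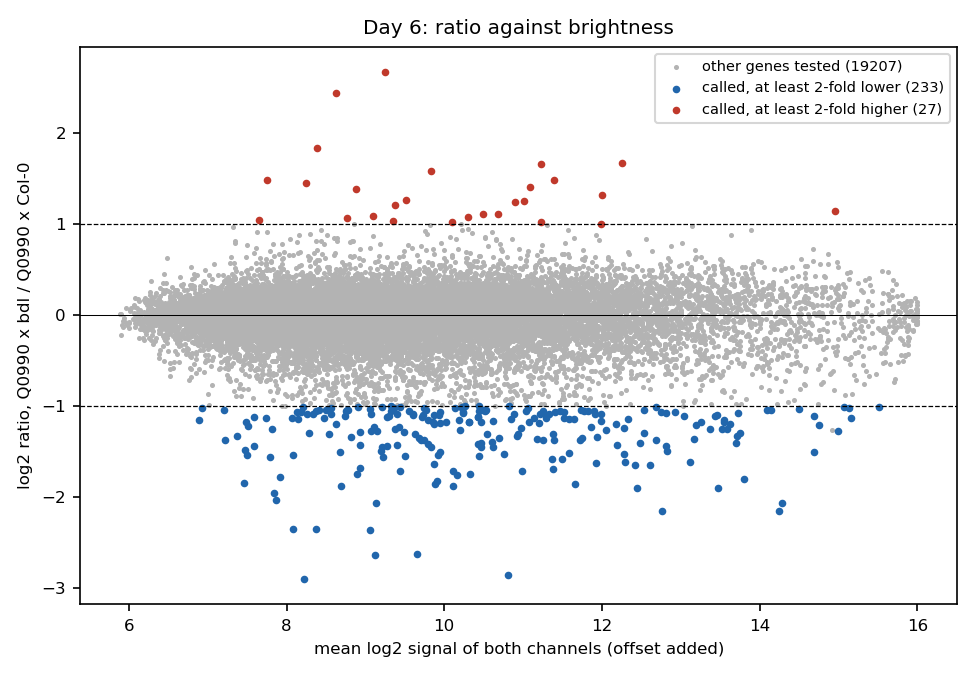
Log2 ratio of the bdl cross to the Col-0 cross (y axis, mean of 4 arrays) against the mean log2 signal of both channels (x axis) for the 19467 genes tested on day 6. Grey points did not reach both the test and 2-fold, blue points are the 233 called falls and red points the 27 called rises of at least 2-fold, and dashed lines mark 2-fold.

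Falls of 2-fold or more were more frequent among bright genes, as were calls of any size in both directions. Of the tenth of genes with the lowest mean signal, 4 of 1947 were called and at least 2-fold lower, and of the tenth with the highest, 52 of 1947. The median ratio of each of these 10 groups lay between -0.02 and 0.01. Most genes rest on 1 reporter (18053 of 19467), which also holds for 252 of the 260 2-fold calls. Where a gene had a reporter that was at least 2-fold lower and at least 1 other kept reporter (27 genes), the next lowest reporter reached 2-fold in 2 genes and 1.5-fold in 6. It was negative in 24, with a median of -0.32. For the 9 genes with a reporter at least 2-fold higher, the next reporter reached 2-fold in 3 and 1.5-fold in 6 (median 0.94). The reason for this difference was not tested.

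Within the Aux/IAA family, the early-response repressor IAA19 had the largest fall and BDL itself the largest rise. IAA19 ratios were -1.42, -1.38, -1.20 and -1.51 (2.6-fold lower, adjusted p = 1.09e-04), low on every array. Of 22 Aux/IAA genes tested, 4 were called higher (18.2%, beside 16.2% over all genes) and 6 lower (27.3%, beside 19.4%), with a median of -0.04. After BDL the highest was IAA16 (0.89 ± 0.17), whose Q0990 x Col-0 channel was above the blanks on 1 array. PAP1 and PAP2, other names of IAA26 and IAA27, rose by 0.52 each on the log2 scale (0.75, 0.29, 0.68 and 0.37 and 0.48, 0.50, 0.55 and 0.56), although PAP1 was not called without array 1 or array 3 (adjusted p = 0.0512 and 0.074). The ARF list moved little, with 2 of 22 higher (9.09%) and 4 lower (18.2%; median -0.05), and the largest of these changes was the fall of ARF8 (-0.62 ± 0.30).

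Genes that move and make auxin were more often lower than higher. Of 31 genes, 14 fell (45.2%, beside 19.4% over all genes) and 4 rose (12.9%, beside 16.2%), with a median of -0.13. NPY4, which encodes a BTB protein of the family that acts with the kinase PINOID, had ratios of -1.46, -1.49, -1.67 and -1.64 (2.96-fold lower, adjusted p = 6.30e-06). YUC3, which encodes a flavin monooxygenase of auxin synthesis, had ratios of -1.82, -1.38, -1.37 and -1.23 (2.73-fold lower, adjusted p = 1.84e-05). Neither gene had an array near 0. The auxin efflux carrier genes PIN3 (-0.74 ± 0.08) and PIN4 (-0.61 ± 0.10) and the influx carrier gene LAX3 (-0.60 ± 0.07) fell by less. PIN4 has 3 reporters that ranged from -1.69 to -0.02, and its brightest reporter alone was not called.

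Among auxin-inducible families, single genes fell strongly. The jasmonate and auxin conjugation genes of the GH3 family and the LATERAL ORGAN BOUNDARIES domain genes together had 10 of 37 lower (27%, beside 19.4% over all genes) and 6 higher (16.2%, beside 16.2%), with a median of -0.09. ASL5 (LBD12) had ratios of -1.28, -2.71, -2.74 and -2.70 (5.13-fold lower, adjusted p = 2.01e-04). Array 1 lay well above the other arrays, which agreed closely. DFL1, a GH3 gene, was lower on every array (-0.72, -0.94, -0.86 and -0.92). Of 45 genes that the array's descriptions call auxin-responsive or SAUR, 14 fell (31.1%) and 2 rose (4.44%; median -0.12), with SAUR36 (-0.86 ± 0.24), above the blanks on 1 array and only in Q0990 x Col-0, and SAUR19 (-0.71 ± 0.07) among the lowest.

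Genes known to act downstream of MP in vascular initiation included 3 falls of at least 2-fold, smaller changes and genes not called. Of 15 tested, 6 fell (40%, beside 19.4% over all genes) and 2 rose (13.3%, beside 16.2%; median -0.07). BS1, better known as TMO7, encodes a small bHLH protein that moves from neighbouring embryo cells into the hypophysis. Its ratios were -2.40, -1.83, -1.64 and -1.94, low on all arrays, and because its Q0990 x bdl channel was above the blanks on none it was at least 2.61-fold lower (adjusted p = 4.79e-05). LOG3 and LOG4 encode enzymes that release active cytokinin. LOG3 was lower by nearly the same amount on each array (-1.40, -1.48, -1.36 and -1.44; 2.68-fold, adjusted p = 4.91e-06), and LOG4 varied more (-1.31, -0.98, -0.50 and -1.02; 1.94-fold, adjusted p = 4.12e-04). AT1G68810, a bHLH gene known as T5L1 and a close relative of TMO5, had ratios of -2.23, -0.68, -0.97 and -0.90 (2.29-fold lower, adjusted p = 0.00271), with array 1 far below the rest.

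Among vascular genes, 1 fell strongly and most were not called. HP6, better known as AHP6, encodes a pseudo-phosphotransfer protein that damps cytokinin signalling beside the developing xylem. Its ratios of -1.92, -1.99, -1.75 and -1.83 were close to each other (3.66-fold lower, adjusted p = 5.86e-07). ACL5, a thermospermine synthase gene of xylem cells, was lower on all arrays, least on array 1 (-0.97 ± 0.42; adjusted p = 5.21e-04). WOL, the cytokinin receptor gene of the vascular cylinder, fell less (-0.40 ± 0.17). Over 15 genes, 4 fell (26.7%, beside 19.4% over all genes), 1 rose (6.67%, beside 16.2%) and the median was 0.03.

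Of 39 cytokinin genes, 15 fell (38.5%, beside 19.4% over all genes) and 7 rose (17.9%, beside 16.2%), with a median of -0.11. Besides AHP6, LOG3 and LOG4, the response regulator gene RR5 (ARR5) had ratios of -1.23, -0.50, -0.56 and -0.72 and the cytokinin oxidase gene CKX5 ratios of -0.59, -1.11, -0.03 and -0.93. Both were called (adjusted p = 0.00213 and 0.00887), although CKX5 was close to 0 on array 3.

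In the root pole, 1 stem cell regulator fell strongly and others did not. PLT1 encodes an AP2 factor needed for the root stem cell niche. Its ratios were -2.51, -1.90, -1.71 and -1.99 (4.07-fold lower, adjusted p = 2.62e-04), and its Q0990 x bdl channel was above the blanks on 1 array against 4 for Q0990 x Col-0. Its relative PLT2 (-0.51 ± 0.26) and the ground tissue regulator SHR (-0.64 ± 0.30) were lower too, but each was above the blanks on 1 array in either channel. WOX5, which marks the quiescent centre, was slightly higher (0.25 ± 0.17, adjusted p = 0.0422) but also above the blanks on 1 array only, and SCR was not called (-0.03, -0.26, -0.07 and -0.17). AT3G45260, known as BALDIBIS and a partner of SHR and SCR, rose (0.90, 0.55, 0.48 and 0.53). Leaving out array 1, 2 or 4 ended the call of WOX5 (adjusted p = 0.183, 0.0869 and 0.164). Of 11 niche genes, 3 were called lower (27.3%, beside 19.4% over all genes) and 3 higher (27.3%, beside 16.2%; median -0.03).

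Genes of later root tissues were also among the falls. Of the 10 genes of the endodermis and its Casparian strip, 4 fell (40%, beside 19.4% over all genes) and 0 rose (beside 16.2%; median -0.08). MYB36, a regulator of that barrier, had a value of -0.33 ± 0.21 and was not called without array 3 (adjusted p = 0.0596). MYB66, better known as WEREWOLF, sets hairless cell files in the root epidermis. It was lower by a similar amount on each array (-1.33, -1.25, -1.23 and -1.11; 2.34-fold, adjusted p = 1.30e-05). TRY, a small MYB gene of the same circuit, fell too (-0.48 ± 0.18), and in the epidermal patterning list 5 of 12 fell (41.7%) and 1 rose (8.33%). Of the 8 root cap genes, FEZ (-0.50 ± 0.09) and SMB (-0.30 ± 0.24) fell and WOX13 rose (0.23 ± 0.06). The calls of SMB, whose 2 reporters disagreed (-0.59 to -0.00), ended without array 1, 3 or 4 (adjusted p = 0.217, 0.135 and 0.151), and that of WOX13 without array 1, 2 or 3 (adjusted p = 0.0981, 0.0596 and 0.0905).

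**Figure D2:**
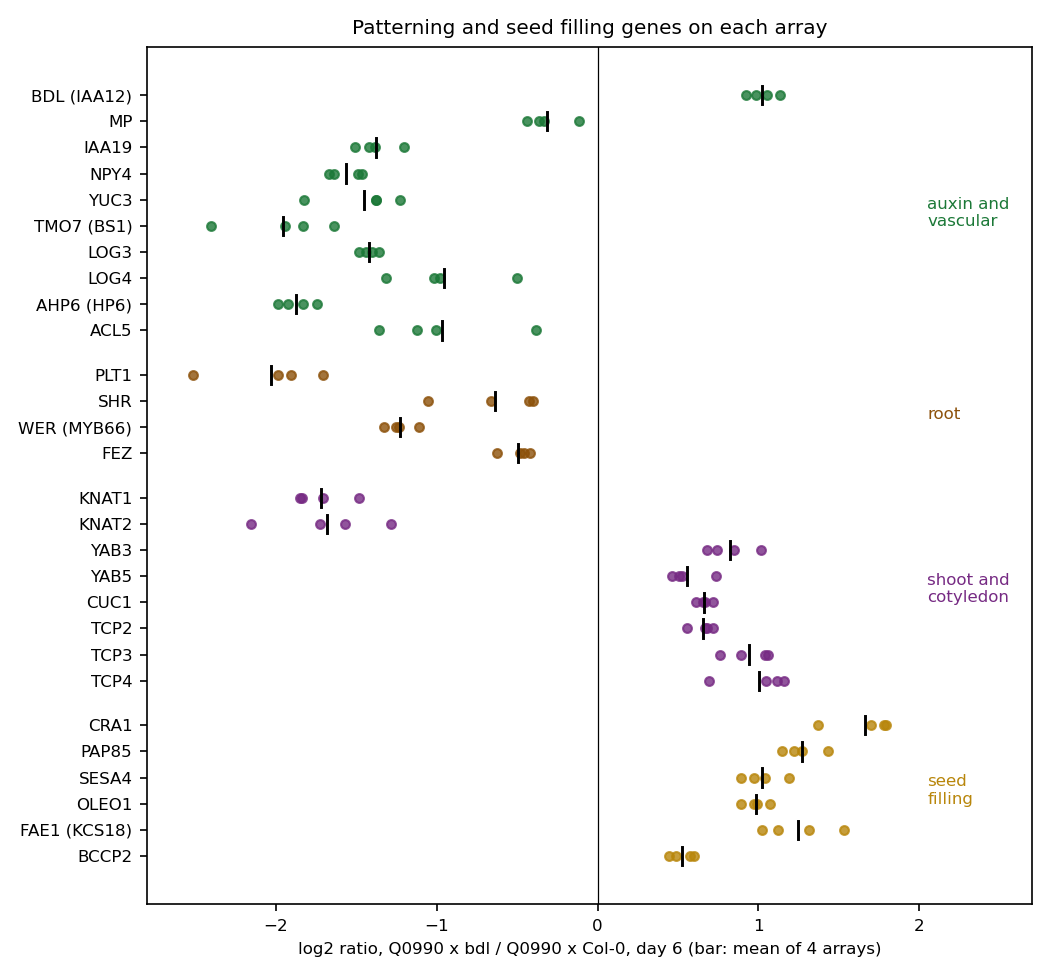
Log2 ratios of the bdl cross to the Col-0 cross on each of the 4 day 6 arrays (points, x axis) for genes of auxin and vascular patterning, root tissues, shoot and cotyledon and seed filling, with the mean of the 4 arrays as a bar. The genes plotted are a selection and do not stand for their whole lists. Among them, auxin, vascular, root and KNAT genes lie left of 0 apart from BDL, and the TCP, YABBY, CUC1 and seed filling genes right of it. Genes with the opposite sign, such as IAA16, WOX5 and the oil body gene CLO4, are not plotted.

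In the shoot, the KNOX genes KNAT1 and KNAT2 fell, and CUC1, YAB3 and YAB5 rose. KNAT1 and KNAT2 are homeobox genes of the shoot meristem and stem. KNAT1 had ratios of -1.85, -1.48, -1.83 and -1.70 (3.29-fold lower, adjusted p = 1.23e-04) and KNAT2 of -2.15, -1.57, -1.29 and -1.73 (3.21-fold lower, adjusted p = 4.54e-05), so both were low on all arrays. The organ polarity genes YAB3 (1.02, 0.68, 0.85 and 0.74) and YAB5 (0.74, 0.46, 0.50 and 0.53) and the cotyledon boundary gene CUC1 (0.61, 0.66, 0.72 and 0.67) were higher on all arrays. Of 24 genes of apex, boundary and polarity, 11 rose (45.8%, beside 16.2% over all genes), 4 fell (16.7%, beside 19.4%) and 9 were not called (median 0.12).

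TCP genes of the CINCINNATA class, which end cell proliferation in leaves and cotyledons, were higher. TCP4 ratios were 0.69, 1.11, 1.05 and 1.16 (2-fold, adjusted p = 1.49e-04), TCP3 ratios 0.89, 1.06, 0.76 and 1.04 (1.92-fold, adjusted p = 3.85e-05) and TCP2 ratios 0.72, 0.68, 0.67 and 0.55 (1.57-fold, adjusted p = 8.26e-05). No array was near 0 for any of them. TCP10 (0.45 ± 0.06) and the growth regulator gene GRF1 (0.57 ± 0.04) rose by less. With the other GRF and GIF genes the list had 7 of 18 higher (38.9%, beside 16.2% over all genes) and 2 lower (11.1%, beside 19.4%; median 0.11).

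Of 8 storage protein genes, 5 rose (62.5%, beside 16.2% over all genes) and 0 fell (median 0.72). CRA1, a cruciferin gene, had ratios of 1.78, 1.70, 1.37 and 1.79 (3.16-fold, adjusted p = 1.67e-04). PAP85, a vicilin-like gene, had ratios of 1.43, 1.27, 1.15 and 1.22 (2.41-fold, adjusted p = 1.21e-04). SESA4 (1.02 ± 0.13), SESA2 (0.94 ± 0.13) and SESA3 (0.50 ± 0.08), which encode albumins, were higher as well, whereas CRU2 (0.19, -0.06, -0.24 and 0.03) and CRU3 (0.06, 0.07, -0.04 and -0.05) were not called and were above the blanks on 1 to 3 arrays per channel.

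Of 9 oil body genes, 4 rose (44.4%, beside 16.2% over all genes) and 2 fell (22.2%, beside 19.4%). HSD1, a steroleosin gene of the oil body surface, had ratios of 2.80, 2.25, 2.19 and 2.52 (5.43-fold, adjusted p = 1.23e-04), with its Q0990 x Col-0 channel above the blanks on 1 array. HSD1 has a near-identical copy in the genome that could share this signal. The oleosin genes OLEO1 (0.98 ± 0.08) and OLEO4 (0.58 ± 0.06) and the caleosin gene ATS1 (0.94 ± 0.25) rose, and the caleosin relatives CLO4 (-0.46 ± 0.12) and ATPXG2 (-0.35 ± 0.09) fell. Of 25 genes of fatty acid and oil synthesis, 15 rose (60%) and 3 fell (12%; median 0.33). KCS18, better known as FAE1, lengthens the fatty acids of seed oil and had ratios of 1.53, 1.12, 1.31 and 1.02 (2.37-fold, adjusted p = 5.68e-04). PKP-BETA1, a plastid pyruvate kinase gene (0.60 ± 0.30), BCCP2, a subunit of acetyl-CoA carboxylase (0.53 ± 0.07), the desaturase gene FAD3 (0.51 ± 0.08) and KASI (0.48 ± 0.09) were higher by smaller amounts, KASI not called without array 1 or array 3 (adjusted p = 0.0508 and 0.0646).

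Of 15 regulators of seed maturation, 4 rose (26.7%, beside 16.2% over all genes) and 1 fell (6.67%, beside 19.4%; median 0.08). None was called at 2-fold, which held for only 1.34% of all genes. BZIP53 (0.67 ± 0.12), NF-YB6 (L1L; 0.63 ± 0.13), FUS3 (0.29 ± 0.02) and WRI1 (0.21 ± 0.06) rose, HSI2 fell (-0.24 ± 0.02), and the remaining 10 of 15 were not called. TGG1, the myrosinase gene of myrosin and guard cells, had the largest rise of all genes. Its ratios were 2.94, 2.64, 2.73 and 2.35 (6.35-fold, adjusted p = 3.56e-06), with its Q0990 x Col-0 channel above the blanks on 2 arrays. TGG2 rose as well (0.68 ± 0.22), with reporters at 0.04 to 1.32. Over 20 myrosin and glucosinolate genes, however, 3 rose (15%, beside 16.2% over all genes) and 4 fell (20%, beside 19.4%; median -0.07).

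Many genes of the green plastid rose by small amounts. Of 51 photosystem, light-harvesting and Rubisco genes, 28 were called higher (54.9%, beside 16.2% over all genes) and 1 lower, with a list median of 0.24. PSBO2, of the oxygen-evolving complex, had ratios of 0.63, 0.82, 0.47 and 0.62 and LHCB4.1, a minor antenna gene, of 0.71, 0.54, 0.69 and 0.53. The exception was LHCB2.1 (-0.86, -0.84, -0.61 and -0.82), while its close copies LHCB2.2 (0.44 ± 0.15) and LHCB2.3 (0.40 ± 0.21), named after their values were seen, rose. LHCB2.3 was not called without array 1 or array 3 (adjusted p = 0.0592 and 0.0522), nor LHCB2.1 with no offset (adjusted p = 0.0572). Near-identical copies can share signal on such arrays. In chlorophyll synthesis 11 of 17 rose (64.7%) and 1 fell (median 0.31), with GUN4 (0.59 ± 0.08) the largest called rise and ALB1, a magnesium chelatase subunit gene, the 1 fall (-0.65 ± 0.06).

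**Figure D3:**
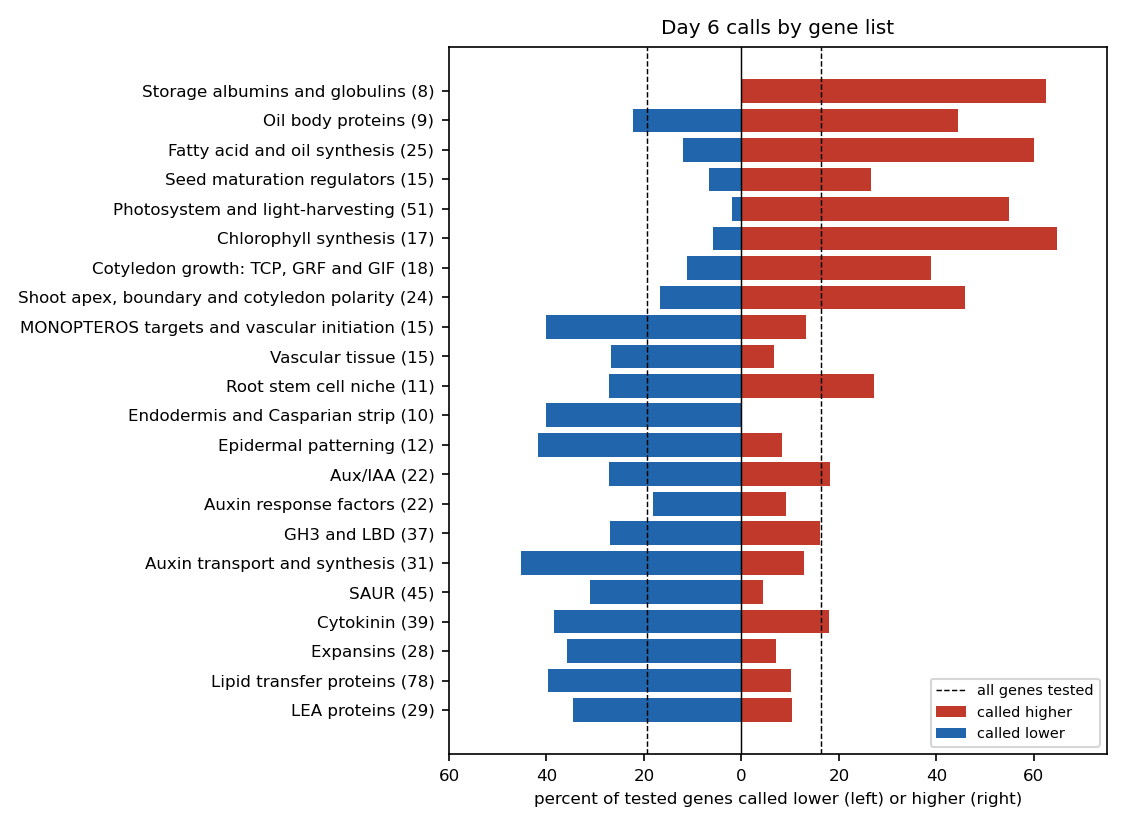
Share of tested genes in each of 22 gene lists that were called higher (red, to the right, percent) or lower (blue, to the left, percent) in Q0990 x bdl on day 6, with the number tested in brackets. Dashed lines mark the shares over all 19467 genes (16.2% higher, 19.4% lower). Lists beyond the first line include photosystem, chlorophyll, oil synthesis and storage. Lists beyond the second include auxin transport, lipid transfer, cytokinin and Casparian strip. Several others, such as shoot apex (45.8% higher) and epidermal patterning (41.7% lower), exceed a line as well.

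Markers of neighbouring seed tissues were measured beside these rises. Of 14 endosperm genes, 4 rose (28.6%, beside 16.2% over all genes) and 1 fell (7.14%, beside 19.4%; median 0.09). Their summed deposited intensity was 5228 to 14686 in Q0990 x bdl and 4722 to 12589 in Q0990 x Col-0. AGL36 and FIS2 were above the blanks in no channel. Of 18 seed coat genes, 3 rose (16.7%) and 3 fell (16.7%; median 0.01), near the shares over all genes. Their sums were 13019 to 33328 and 11500 to 27938, and TT16 was above the blanks in no channel. The flavonoid gene F3H had the largest rise (0.78 ± 0.12) and MUM2 the largest fall (-0.52 ± 0.28). Embryo markers had 6 of 17 higher (35.3%) and 3 lower (17.6%), with sums of 41059 to 94554 and 34553 to 78954. Markers above the blanks on all 4 arrays in Q0990 x Col-0 numbered 10 of 17 for the embryo, 11 of 18 for the seed coat and 3 of 14 for the endosperm. In Q0990 x bdl these numbers were 9, 13 and 5. Each of the 3 sums was larger in Q0990 x bdl on 4 of 4 arrays, and the part of tissue content in the rises and falls was not tested.

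Wall enzymes changed in both directions within the same family. XTH15, which encodes an enzyme that cuts and rejoins xyloglucan, had ratios of -2.45, -2.18, -2.61 and -2.18 (5.11-fold lower, adjusted p = 3.96e-06), above the blanks on 1 array in Q0990 x bdl. XTH24 went the other way, with ratios of 1.28, 1.38, 1.57 and 1.29 (2.6-fold higher, adjusted p = 6.96e-04), as did XTH16 (0.94 ± 0.13) and XTH9 (0.72 ± 0.05). XTH12 fell unevenly, with arrays 1 and 3 lower than arrays 2 and 4 (-1.69, -0.48, -1.47 and -0.57), and was not called without array 1 or array 3 (adjusted p = 0.0947 and 0.0914). Over 34 xyloglucan genes 8 rose (23.5%) and 7 fell (20.6%). Expansins, which loosen walls during growth, had 10 of 28 lower (35.7%, beside 19.4% over all genes) and 2 higher (7.14%, beside 16.2%), with a median of -0.15, led by EXPA15 (-1.49, -1.53, -1.21 and -1.41; 2.66-fold lower, adjusted p = 2.60e-05) and EXLA1 (-0.93 ± 0.08).

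The largest pectin gene changes were falls, and lipid transfer protein genes were mostly lower where called. Of 159 pectin enzyme and inhibitor genes, 28 rose (17.6%) and 36 fell (22.6%), near the 16.2% and 19.4% over all genes, and all 5 that reached 2-fold fell, among them the pectate lyase genes AT4G13710 (-1.91, -1.63, -1.82 and -1.63), AT4G24780 (-1.39 ± 0.24) and AT3G07010 (-1.13 ± 0.17). Of 78 genes for small secreted proteins of the lipid transfer type, 31 fell (39.7%, beside 19.4% over all genes) and 8 rose (median -0.17). AT3G18280 had ratios of -2.07, -1.68, -1.90 and -1.86 (3.67-fold lower, adjusted p = 4.24e-06). EARLI1 had ratios of -2.33, -1.37, -2.23 and -1.36, with arrays 1 and 3 lower than arrays 2 and 4. The 2 genes of this class that rose at least 2-fold were CWLP, a proline-rich wall protein gene with ratios of 1.60, 1.68, 1.47 and 1.58 (2.99-fold higher, adjusted p = 1.20e-06), and AT2G10940 (1.32 ± 0.19).

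Several other families had a large fall at their head. SWEET9, a sugar efflux carrier gene, had the lowest ratio of all genes. Its ratios were -3.02, -2.82, -2.51 and -3.23, and since Q0990 x bdl was above the blanks on no array it was at least 4.71-fold lower (adjusted p = 4.89e-06). Of 32 sugar transport and cleavage genes 9 fell (28.1%) and 6 rose (18.8%), beside 19.4% and 16.2% over all genes (median -0.03). Among 28 jacalin lectin genes 9 fell (32.1%) and 1 rose (3.57%), with AT5G35940 at least 3.53-fold lower (-2.69, -2.32, -2.27 and -2.13) and AT2G25980 4.2-fold lower (-1.90, -2.51, -1.82 and -2.04). Glutathione transferase genes, whose products attach glutathione to reactive compounds, had 10 of 33 lower (30.3%) and 5 higher (15.2%; median -0.05), led by GSTU16 (-1.79, -2.05, -1.48 and -2.11; adjusted p = 1.74e-04) and GSTU15 (-1.44, -1.36, -1.08 and -1.60; adjusted p = 0.00134).

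Late embryogenesis abundant proteins protect dry seeds, and the largest changes among their genes were falls. Of 29 tested, 10 fell (34.5%) and 3 rose (10.3%), beside 19.4% and 16.2% over all genes (median -0.10). COR47 (-0.99, -1.69, -1.09 and -1.41) and XERO1 (-1.49, -0.82, -0.82 and -0.89), which encode dehydrins, were lower on every array. ERD10, another dehydrin gene, was near 0 on array 1 and low on the others (-0.05, -1.51, -1.18 and -1.51; adjusted p = 0.00603). AT2G46140 had ratios of -1.56, -1.24, -1.41 and -1.25 (2.58-fold lower, adjusted p = 5.69e-06).

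Among aquaporins, 2 tonoplast genes had the largest rises. GAMMA-TIP (TIP1;1), a tonoplast water channel gene, had ratios of 1.66, 1.65, 1.73 and 1.65, nearly equal on all arrays (3.19-fold higher, adjusted p = 1.20e-06). Its relative TIP1;3 rose too (1.00 ± 0.11), while the remaining aquaporin genes gave 4 falls and 2 more rises. The list of 21 thus had 19% higher and 19% lower, near the 16.2% and 19.4% over all genes. In the cell cycle list 15 of 71 rose and 11 fell (median 0.08). CYCD1;1, a D-type cyclin gene, was alone at 2-fold, with ratios of -1.64, -1.66, -1.71 and -1.58 (3.13-fold lower, adjusted p = 3.96e-06).

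Many of the largest changes were in genes with little annotation. AT1G35290, a thioesterase family gene, had ratios of -2.96, -2.90, -2.73 and -2.83 (7.23-fold lower, adjusted p = 3.54e-07), the largest fall among genes above the blanks in both channels on all arrays. AT2G30560, described as a glycine-rich protein gene, had ratios of -3.01, -2.41, -2.59 and -2.55, and AT3G13857, with no described function, ratios of -2.76, -3.03, -1.97 and -2.75. AT2G20515 (-2.22, -2.17, -2.14 and -2.09) and AT3G13500 (-2.08, -2.17, -2.19 and -2.19), also undescribed, had nearly equal ratios on all arrays. Hop1, a co-chaperone gene (-1.90, -2.06, -2.24 and -2.08), was low on every array. AT1G26795, related to poppy self-incompatibility proteins (-2.01, -1.85, -1.98 and -1.76), AT5G17960, a DC1 domain gene (-2.13, -1.60, -1.80 and -1.89), AT1G78860, a mannose-binding lectin gene (-1.79, -1.91, -1.40 and -1.93), and TRI, a putative tropinone reductase gene (-1.85, -1.70, -1.47 and -1.96), were low on every array. CML11, a calmodulin-like gene, and AT5G05060 varied more between arrays (-2.81, -1.38, -0.89 and -2.06 and -1.57, -2.66, -1.76 and -1.61), and CML11, above the blanks on no Q0990 x bdl array, was at least 2.57-fold lower.

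Further rises among the 25 largest were of mixed function. CYS2, a cystatin gene, had ratios of 1.46, 1.41, 1.44 and 1.62, and AT1G71695 (peroxidase 12) ratios of 1.45, 1.36, 1.46 and 1.35. Both were nearly equal on all arrays. PER1, the peroxiredoxin gene of dormant seeds (1.85, 1.29, 1.48 and 1.21), and MLS, the malate synthase gene of oil breakdown (1.32, 0.99, 0.87 and 1.02), were above the blanks on 1 array each in Q0990 x Col-0. MIOX2 (myo-inositol oxygenase; 1.47, 1.11, 1.24 and 1.15), AT2G25450, a putative dioxygenase gene (1.39, 1.04, 1.30 and 1.11), SCPL12 (serine carboxypeptidase-like; 1.15, 1.12, 1.16 and 1.01), THI2.2 (thionin; 1.07 ± 0.03) and PHOT1 (blue light receptor; 1.25, 1.09, 0.78 and 1.14) rose by more than 2-fold on average. AT4G22450 (2.61, 1.67, 0.99 and 2.07), undescribed, and AT1G22330, an RNA-binding protein gene (2.07, 0.84, 1.84 and 1.17), had the widest spread among these rises, and AT1G22330 was not called with no offset (adjusted p = 0.111).

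**Figure D4:**
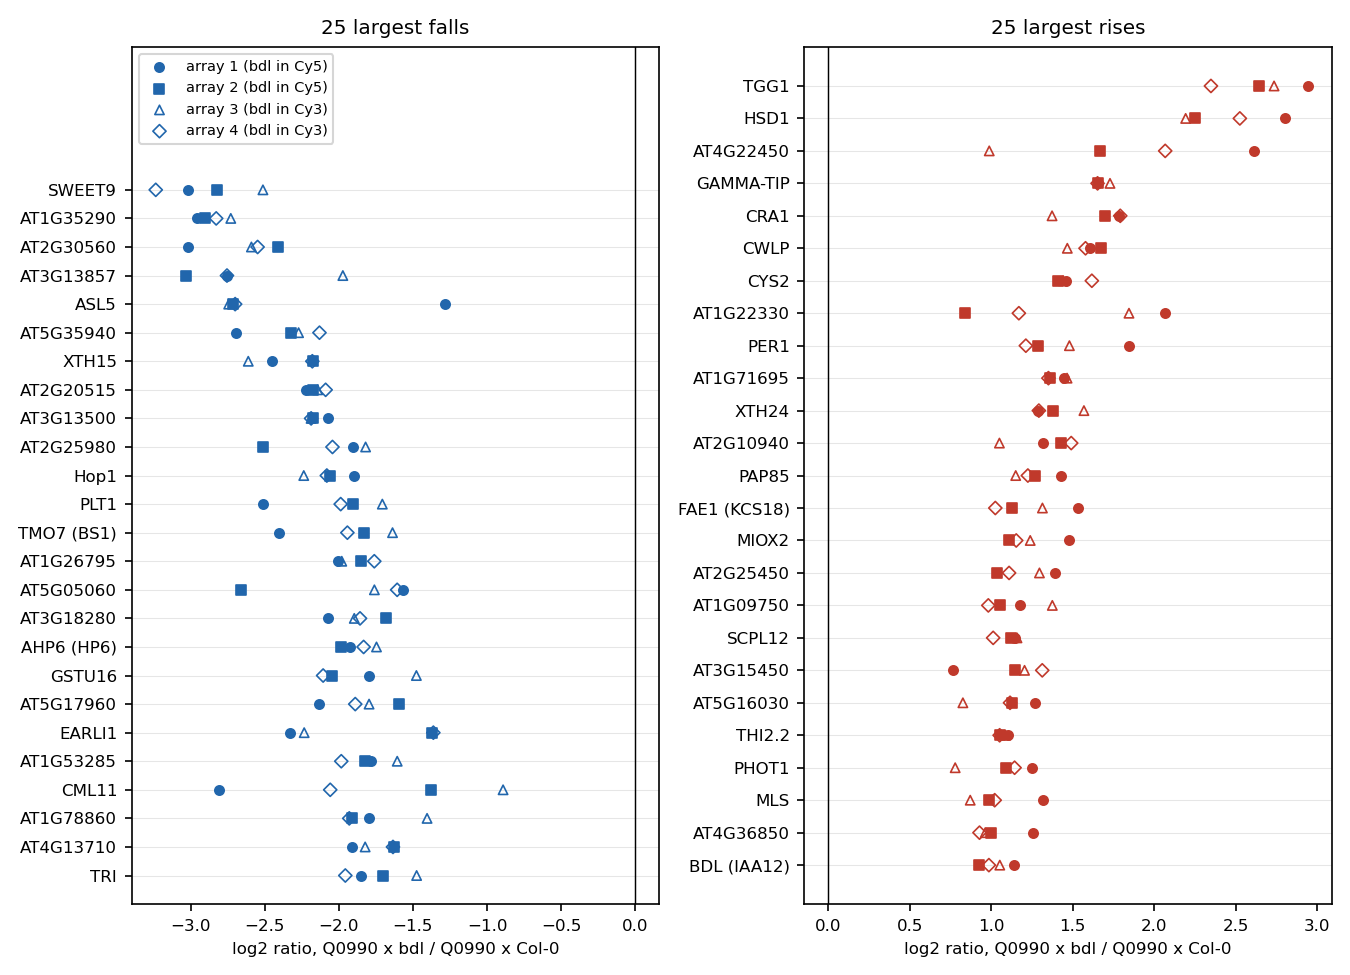
Log2 ratios on each of the 4 day 6 arrays for the 25 largest called rises and 25 largest called falls with 1 sign on all arrays. Filled symbols are arrays with bdl RNA in Cy5 (1 and 2), open symbols arrays with bdl RNA in Cy3 (3 and 4), and the vertical line is no difference.

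Day 3 ratios of the same crosses, from the other 4 arrays, were available for 224 of the 233 falls, and 62 of these were called lower on day 3, 54 called higher and the rest not called (median 0.05). The difference between days was called for 205 of the 224 (41.4% over all genes, 7792 of 18834), from which nothing is read, since these genes were chosen for their day 6 change. Of the 22 rises with day 3 values, 13 were called higher on day 3 and 1 lower (median 0.32), and 17 differed between days. The shares of all genes called higher or lower on day 3 were not counted, so nothing is read from these day 3 counts. BDL differed by 0.16 between days (adjusted p = 0.14) and MP by 0.16 (adjusted p = 0.321), neither called.

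**Figure D5:**
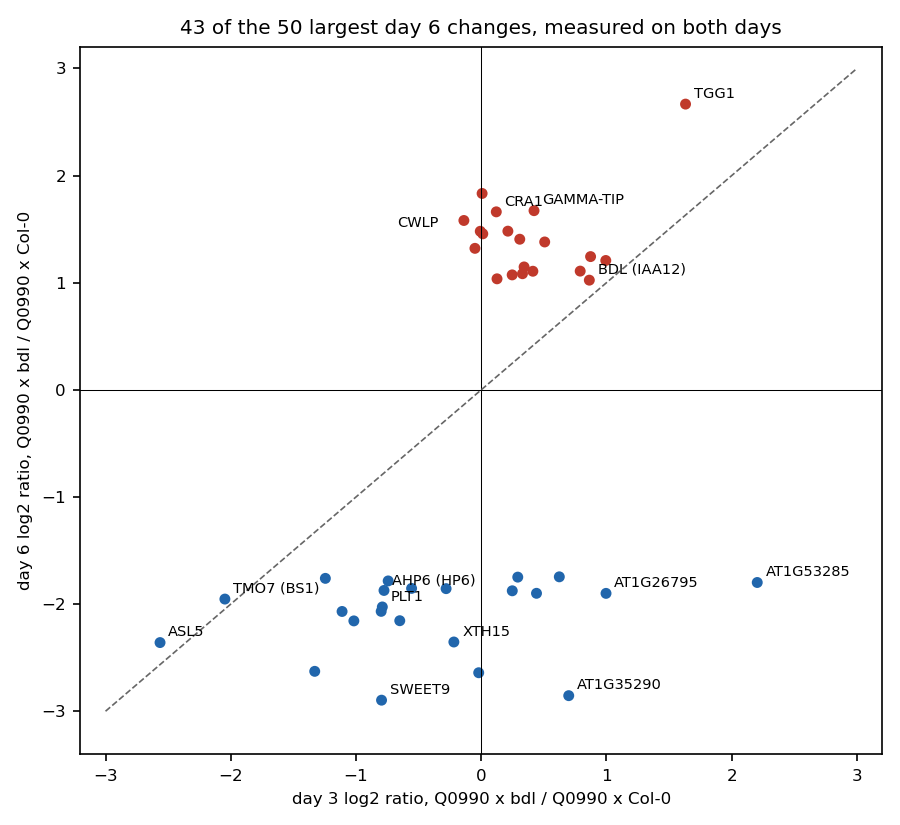
Log2 ratio of the bdl cross to the Col-0 cross on day 6 (y axis) against day 3 (x axis) for the 43 of the 50 genes with the largest day 6 changes that were measured on both days, with some of the genes named in the text labelled. The dashed diagonal marks equal ratios on both days; BDL lies near it and AT1G35290 and XTH15 far below it, and the day 6 values of SWEET9, TMO7 (BS1) and CML11 stand for lower bounds on a fall.

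Among the genes above, LOG3 had log2 ratios of -1.34 on day 3 and -1.42 on day 6, and the difference was not called (adjusted p = 0.478). XTH15 went from -0.22 to -2.35 (adjusted p of the difference = 2.75e-05), AHP6 from -0.78 to -1.87 (adjusted p = 2.07e-05) and YUC3 from -0.37 to -1.45 (adjusted p = 2.99e-04). SESA3 was far higher on day 3 (3.82) than on day 6 (0.50, adjusted p = 1.87e-06). In the other direction, WOX5 went from -1.98 to 0.25 (adjusted p = 1.35e-05). CUC1 changed sign from day 3 to day 6 (-1.13 and 0.66, adjusted p = 1.24e-04), and TCP4 moved from -0.08 to 1.00 (adjusted p = 4.54e-04).

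Of the 224 falls, 17 were also called and at least 2-fold lower on day 3, and 18 were called and at least 2-fold higher on day 3. These counts too stand without the day 3 shares over all genes. AT1G53285, undescribed, had ratios of -1.78, -1.82, -1.61 and -1.98 on day 6 and a day 3 value of 2.20 (adjusted p of the difference = 1.52e-06). AT1G43667, of the lipid transfer type, had -1.48, -1.76, -1.45 and -1.78 and a day 3 value of 1.96 (adjusted p = 6.82e-06). Its neighbours by gene code, AT1G43665 (1.38 on day 3, -1.36 on day 6) and AT1G43666 (1.08 and -1.19), named after their values were seen, did the same. Related genes can share signal on such arrays, so these 3 genes may not be independent of each other.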

How the data were processed

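The values are intensities of both channels of 2-colour arrays, deposited by the authors as 1 table per array; per the labels' protocols, total RNA of isolated embryos was amplified and coupled to dyes. The background correction and image software are not given in the sources used here. Per the series text the scanner output was lost. An offset of 50 was added, and log2 ratios were computed from the deposited intensities and fitted by loess within each array (span 0.3, 4 iterations, control spots at weight 0). Reporters above the 95th percentile of 1743 blank spots in at least 4 of 16 signals were kept (21969 of 27387), then averaged per gene. A deposited series table of log2 ratios served as an alternative. limma 3.58.1 (R 4.3.3) fitted all 8 arrays with day and dye terms, with at least 3 arrays per day, and p-values were adjusted by Benjamini-Hochberg over all genes (called: under 0.05). In simulated data with 200 changed genes of 19467, the fit recovered 83.5% of them, and 5.11% of its calls were false. The simulated noise was independent between arrays, so it cannot speak to arrays that share RNA. Arrays limit precision by their number. Same-numbered arrays of day 3 and day 6 deviated with correlations of -0.26 to -0.15, and the main fit did not pair arrays by number. These correlations cannot tell whether same-numbered arrays share a batch. Where a gene was never above the blanks in its dim channel, the fold is a bound against the lowest signal above the blanks, or the gene's own signal where that was higher.

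Genes named are the 25 largest called rises and falls with 1 sign on all arrays and the brighter side above the blanks on 3 arrays, BDL and MP, and of each list the 5 called members with the largest change (any member of lists under 12 genes). Members and gene lists were chosen, and some lists replaced or trimmed after their values were seen, with earlier results of these data known. Lists are therefore described by counts, with no test of their own. An item withheld for evaluation is not reported here.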

Additional observations from a re-analysis of the deposited data

Results flagged for a closer look

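In 8 of 134 genes named, 1 of the 4 day 6 arrays stood apart from the other 3 by Dixon's criterion, which chance meets in about 1 in 20 groups. Array 1 stood apart for SMB (log2 ratio -0.65), WOL (-0.66), ASL5 (-1.28), AT3G13500 (-2.08) and XERO1 (-1.49). Array 3 stood apart for LHCB2.1 (-0.61), GAMMA-TIP (1.73) and AT4G24780 (-1.03). For GAMMA-TIP and AT3G13500 the gap is small, since the 4 ratios were nearly equal. ASL5 was far nearer to 0 on array 1 than on the rest, while SMB, WOL and XERO1 were lower there. The cause was not tested.

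The effect of the cross differed between day 3 and day 6 by the test of the difference itself for 9 genes whose difference is described above. Such a difference was called for 41.4% of all genes (7792 of 18834). Other genes named for their day 6 change differed too, among them TGG1 (difference 1.04, adjusted p = 9.14e-04) and CWLP (1.72, adjusted p = 4.36e-06), so the 9 do not stand apart. The day 6 log2 ratio was lower than that of day 3 for YUC3 (difference -1.08), AHP6 (HP6; -1.10), XTH15 (-2.14), SESA3 (-3.31), AT1G43667 (-3.58) and AT1G53285 (-4.002). It was higher for TCP4 (1.08), CUC1 (1.80) and WOX5 (2.23). SESA3 was called higher on both days. WOX5 was above the blanks on 1 day 6 array in either channel.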

How the results depend on the processing

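Of the 134 genes named, no called gene changed direction under the alternatives run on the intensities. Many of these alternatives could not show such a change. Dropping or replacing the dye term, or averaging arrays in pairs, left the day 6 estimate of a gene measured on all arrays unchanged. A gene with 1 sign on 4 of 4 arrays can hardly turn when 1 array is left out. Some of the genes named had no reporter above the blanks in all signals and were not checked there. Direction was not checked gene by gene in the deposited series table. Leaving out 1 day 6 array in turn gave 4507 to 5200 calls, 1854 to 2335 higher and 2653 to 2865 lower, with 23 to 33 genes at least 2-fold higher and 197 to 258 at least 2-fold lower. Averaging arrays 1 and 3 and arrays 2 and 4 as 2 replicates, chosen after seeing the data, gave 3170 calls, 1158 higher and 2012 lower, and ended the calls of MP, SMB, HSI2, WOX5, WRI1, WOX13, KASI, ATPXG2, XTH12 and MYB36; fewer samples enter that fit. Genes called and at least 2-fold higher numbered 56 with no offset, 57 with neither offset nor loess and 13 with reporters above the blanks in all signals, where 10175 genes were tested. The deposited series table gave 87 higher and 396 lower at 2-fold among 26098 entries, which were not averaged per gene. With a replicate block in place of the dye term, calls were 5284 (2281 higher, 3003 lower), 27 and 230 at 2-fold, and 6446 for the difference between days; the block ended the day 6 calls of SMB, WOX13 and XTH12. With no offset AT1G22330, SMB, LHCB2.1 and WOX5 were not called. PIN4 was not called from its brightest reporter. Of the list counts, the storage list stayed at 5 rises without any 1 array, photosystem rises ranged from 21 to 27 (28 with all arrays), lipid transfer falls from 27 to 29 (31 with all arrays), and auxin transport falls dropped from 14 to 11 in each. Averaging arrays in pairs left 5 storage rises, 20 photosystem rises, 26 lipid transfer falls and 10 auxin transport falls. It cut chlorophyll rises from 11 to 5, oil synthesis rises from 15 to 10 and oil synthesis falls from 3 to 0. Other causes of these moves were not tested. Brightness limits genes near the blanks, whose folds are compressed by the offset.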

Other observations

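Other hormone classes, wall genes and ribosomal genes were counted beside 16.2% higher and 19.4% lower over all genes. Of 22 gibberellin genes 4 rose (18.2%) and 2 fell (9.09%), of 40 abscisic acid genes 6 rose (15%) and 9 fell (22.5%), and of 19 brassinosteroid genes 5 rose (26.3%) and 2 fell (10.5%). Genes of cellulose and the secondary wall had 13 of 53 lower and 2 higher, and touch and wounding genes 5 of 14 lower and 0 higher. Cytosolic ribosomal protein genes had 50 of 213 higher and 39 lower (median log2 ratio 0.04), and ubiquitin genes 8 of 36 higher and 7 lower (median 0.04).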
